A study of Mus musculus with 15 samples.

Results

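Macrophages of the mouse line RAW264.7 that received 2 hydroxylated docosahexaenoyl ethanolamides (HDHEAs) together were compared with macrophages that received either compound alone, all after activation with lipopolysaccharide (LPS). The comparison used 9 of the 15 arrays of the series, chosen by sample title: 3 arrays of the combined treatment, 3 of 13-HDHEA and 3 of 16-HDHEA. In each of 3 experiments the combined array was set against the mean of the 13-HDHEA and 16-HDHEA arrays of the same experiment. Cells of the combined group had 2.5 µM 13-HDHEA and 2.5 µM 16-HDHEA, cells of the single groups had 5.0 µM of 1 compound, and all of them received 1.0 µg/mL LPS after 30 min. The total amount of HDHEA was therefore the same in the 3 groups, while each compound was at a lower concentration in the combined group than in its own group. The vehicle of all groups was 0.1% ethanol, and cells were harvested at 24 h. The other 6 arrays, 3 of LPS with vehicle and 3 of vehicle without LPS, are used below for levels and for the shared estimate of the spread. Replicate numbers stand for separate experiments with their own identifiers in the labels, but all come from 1 cell line.

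LPS comes from the cell envelope of Gram-negative bacteria, and macrophages that sense it through Tlr4 switch on cytokine, chemokine and interferon-stimulated genes and slow their division. Docosahexaenoyl ethanolamide is an endocannabinoid-like conjugate of an omega-3 fatty acid with ethanolamine, and enzymes that oxidise fatty acids can add a hydroxyl group to it. 13-HDHEA and 16-HDHEA are positional isomers: they differ in the carbon that carries this hydroxyl group. Against the mean of the single treatments, a value of 0 for the combined treatment means a level midway between the isomers, and a value away from 0 means a level that is not their average.

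Values were log2 expression per probe set, and 15468 genes passed a filter on low values. Cell identity was checked on the 9 HDHEA arrays: all 12 macrophage markers lay above the array's median on every array, with means between 6.59 for Fcgr3 and 12.44 for Cd68. Of the markers of other cells, 2 of 10 for fibroblasts (Pdgfra, Acta2), 0 of 8 for lymphocytes, 2 of 10 for neutrophils (S100a8, Mmp8) and 4 of 11 for epithelial and endothelial cells (Krt8, Pecam1, Cdh5, Vwf) did so. Over all tested genes, the root mean square difference between 2 arrays of the same experiment was 0.230 to 0.270 for combined against 13-HDHEA and 0.220 to 0.239 for combined against 16-HDHEA. It was 0.221 to 0.251 for 13-HDHEA against 16-HDHEA, and 0.258 to 0.311 between combined arrays of different experiments. Arrays of different treatments within an experiment thus lay about as close to each other as, or closer than, repeats of the combined treatment did.

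No gene passed the test for a difference between the combined treatment and the mean of the single treatments. limma called 0 of 15468 genes (0%) at an adjusted p under 0.05, the smallest adjusted p was 1, and 496 genes (3.21%) had an unadjusted p under 0.05. With experiment as a block, limma again called 0 genes (0%), the smallest adjusted p was 0.629, and 673 genes (4.35%) had an unadjusted p under 0.05. Over all alternative settings the smallest adjusted p ran from 0.124, without 16-HDHEA replicate 1, to 1. For comparison, LPS against no LPS in the same model called 4616 genes (29.8%). A further 9889 probe sets that the platform's gene table did not list gave 0 calls with limma, with 375 at an unadjusted p under 0.05 and a smallest adjusted p of 0.324.

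The intervals show how large a departure from the average could have gone unseen. The differences had a median of 0.0020 over genes, none reached 1 log2 unit, which is 2-fold, and 51 genes (0.33%) were past 0.5 log2 in either direction. The 95% interval of the difference lay within 1 log2 unit on either side of 0 for 15386 genes (99.5%) and within 0.5 for 13366 genes (86.4%). The narrower limit was met by 74.4% of the dimmest tertile of genes by mean level, by 87.3% of the middle tertile and by 97.54% of the brightest one. These intervals come from the fit of group means, which does not use the pairing of arrays by experiment. With experiment as a block, 88.8% of all genes met the narrower limit. The median half-width of the interval was then 0.2068, against 0.2345. For most bright genes the interval thus bounded the departure from the average within 0.5 log2 units, while for many dim genes it did not. Each interval is for a single gene, whereas calls were adjusted over all tested genes. The lack of calls does not by itself exclude a departure of that size, in bright or dim genes.

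**Figure D1:**
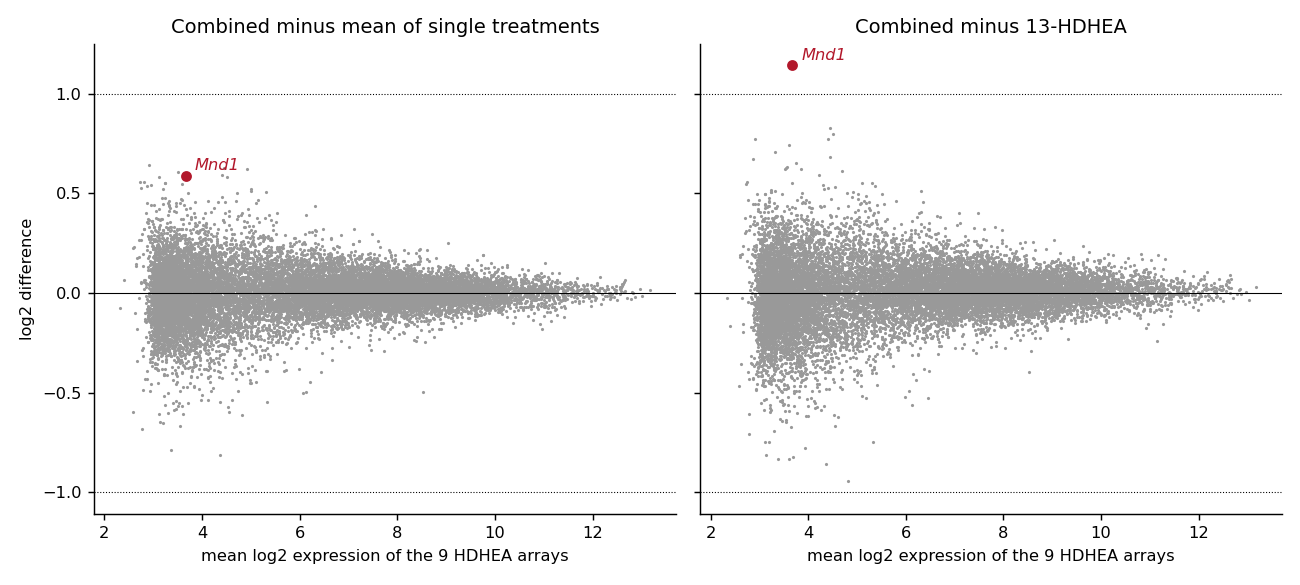
Log2 difference of each of the 15468 genes against its mean log2 expression on the 9 HDHEA arrays, for combined minus the mean of the single treatments (left) and combined minus 13-HDHEA (right); dotted lines mark 2-fold. The scatter narrows as expression increases, no gene passes 2-fold on the left, and Mnd1 alone does so on the right.

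Where the combined treatment stood between the isomers was close to evenly divided. The group mean of the combined arrays was above both single means for 5247 genes, between them for 5141 (33.2%) and below both for 5080. The within-experiment differences had medians over genes of 0.0083, -0.0057 and 0.0016 in experiments 1 to 3. Across genes, which are not independent replicates, the differences of 1 experiment correlated with those of another at Pearson's r of -0.048, 0.0141 and 0.0137. Their sign was above 0 in all 3 experiments for 1952 genes (12.6%) and below 0 for 1837 (11.9%). In a stricter comparison of single arrays, the 3 combined arrays lay above all 6 single-treatment arrays for 114 genes (0.737%) and below all 6 for 107 (0.692%). Together these were 221 genes (1.43%), against 803 when each experiment's mean was removed first. The count that would arise without any effect of treatment was not worked out for either way of counting. Nothing is therefore read from the rise to 803.

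The 3 groups were also compared pair by pair. limma called 1 gene (0.00646%) for combined against 13-HDHEA, 0 (0%) for combined against 16-HDHEA and 1 (0.00646%) for 13-HDHEA against 16-HDHEA. At an unadjusted p under 0.05 the counts were 536 (3.47%), 433 (2.8%) and 480 (3.1%). The gene was the same in both cases: Mnd1, measured by probe set 17406323 (Entrez gene 76915), whose protein works with Hop2 in strand exchange between homologous chromosomes in meiosis. Against vehicle, limma called 0 genes (0%) both for the combined group and for the mean of the single treatments, with 539 (3.48%) and 593 (3.83%) at an unadjusted p under 0.05.

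The log2 level of Mnd1 was 3.86, 4.10 and 4.23 on the combined arrays of experiments 1 to 3, 3.13, 2.79 and 2.85 on the 13-HDHEA arrays and 3.88, 4.10 and 4.10 on the 16-HDHEA arrays. It was 4.19, 4.22 and 4.42 with LPS and vehicle, and 5.23, 5.54 and 5.27 without LPS. The combined and 16-HDHEA arrays overlapped, and every 13-HDHEA array lay below all of the others. The value 4.1038 stands 3 times in the deposited table, on combined replicate 2 and 16-HDHEA replicates 2 and 3. This narrows the spread within the 16-HDHEA group and sets the experiment 2 difference between the combined and 16-HDHEA groups to 0. Other dim genes also had values that repeated between groups, to the digits kept, among them Pla2g4e (3.927) and Apoe (4.222). The means were 4.06 ± 0.188 in the combined group, 2.92 ± 0.183 with 13-HDHEA and 4.03 ± 0.131 with 16-HDHEA (SD, n = 3 each). The 3 13-HDHEA values were below the 40th percentile of their arrays (mean 3.206), so that this group has only an upper bound.

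Mnd1 was 1.14 log2 units higher in the combined group than with 13-HDHEA (SE 0.127, 95% interval 0.87 to 1.42, limma adjusted p = 0.00691, and 0.0152 when adjusted over the 3 pairs and all genes together). This was a fold of at least 1.81 with the 13-HDHEA arrays at their 40th percentile, and of 2.21 as measured. The difference was 0.73, 1.32 and 1.38 in experiments 1 to 3, and with experiment as a block limma's adjusted p was 0.0263. The difference stayed between 1.03 and 1.35 whichever array or experiment was left out, but the call rested on few arrays. With the 9 HDHEA arrays alone in the fit limma's adjusted p was 0.125. It was 0.0736 and 0.0685 without combined replicate 2 or 3, 0.0752 and 0.0758 without 13-HDHEA replicate 2 or 3, and 0.903 and 1 without experiment 2 or 3. Against 16-HDHEA the combined group differed by 0.04 (95% interval -0.24 to 0.31, limma adjusted p = 1), so a departure of more than 0.31 lay outside the interval. The isomers themselves differed by -1.11 as measured, for 13-HDHEA minus 16-HDHEA (limma adjusted p = 0.0102, and 0.0152 over the 3 pairs). As a bound, Mnd1 was at least 1.77-fold lower with 13-HDHEA than with 16-HDHEA, and with the 9 HDHEA arrays alone limma's adjusted p was 0.164.

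Relative to the mean of the isomers, Mnd1 had the smallest p of the named genes, with a difference of 0.59 (95% interval 0.35 to 0.83, unadjusted p = 0.000115), but its limma adjusted p was 1. The difference was 0.36, 0.66 and 0.75 in the 3 experiments. Against the vehicle arrays, which both differences share, the level of Mnd1 differed by -0.21 in the combined group (95% interval -0.48 to 0.06, limma adjusted p = 1) and by -0.80 for the mean of the single treatments (limma adjusted p = 0.0774).

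**Figure D2:**
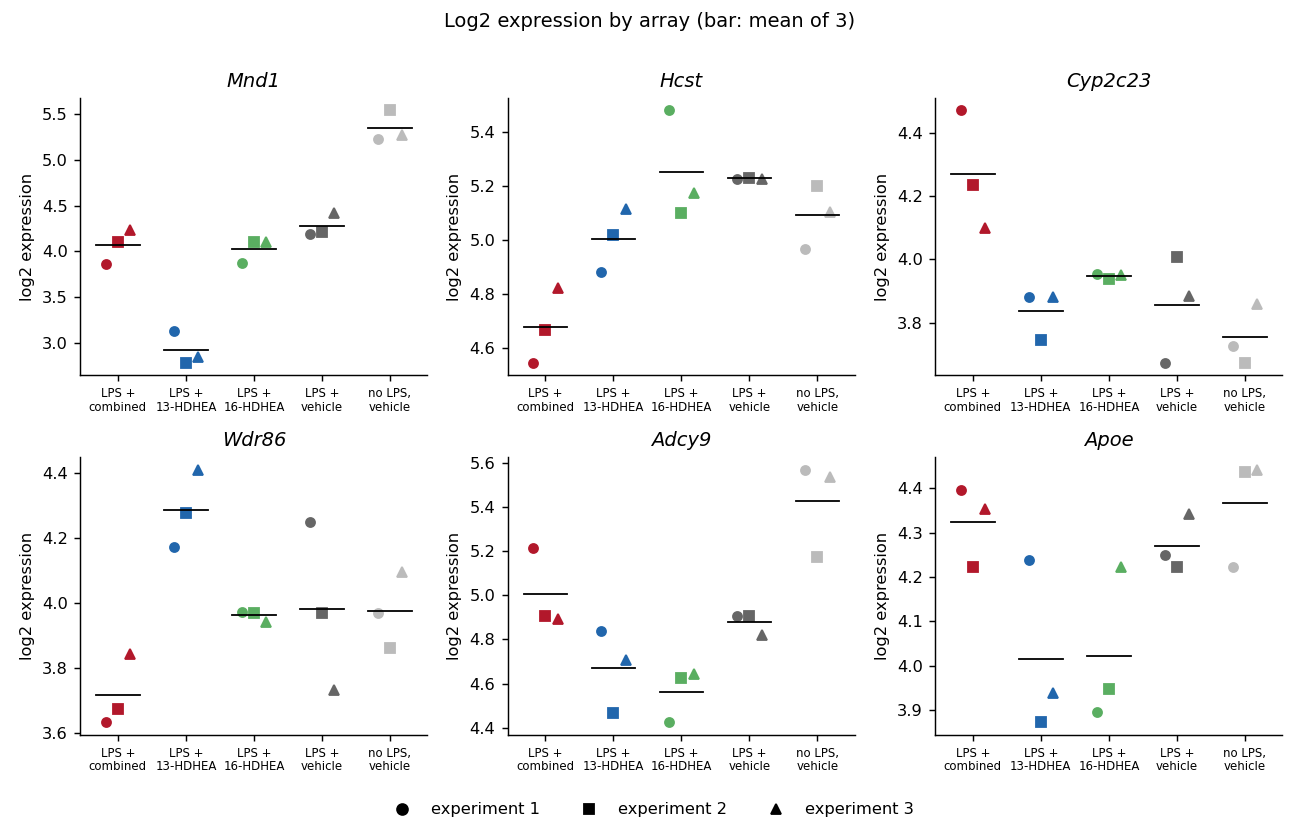
Log2 expression of 6 genes on each array of the 5 groups, with experiments as symbols and the mean of 3 as a bar; each panel has its own axis. Mnd1 is low on the 13-HDHEA arrays alone, Hcst is lowest and Cyp2c23 highest on the combined arrays, and the Apoe groups overlap.

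The rule for named genes took the 10 genes with the smallest p in each direction that kept 1 sign in the 3 experiments, after setting aside predicted and RNA genes. Its requirement on level applied to the higher group alone, so a dim gene could pass through the group where it was high. None was called: unadjusted p-values ran from 0.000115 to 0.00612, and all 20 had a limma adjusted p of 1. The sizes were 0.26 to 0.59 log2 units. All 20 lay below the median level of tested genes (5.95), at 3.35 to 5.05. In 12 of the 20 the combined arrays did not overlap the single-treatment arrays, against 1.43% of all genes, but the 20 were chosen by these same values and nothing is read from that count.

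The 10 with a higher value were Mnd1, Cyp2c23, Gpihbp1, Ddn, Pdzd4, Sostdc1, Rpl6, Serpinb6c, Olfr492 and Adcy9. Cyp2c23, a cytochrome P450 that makes epoxides from arachidonic acid, had 4.47, 4.23 and 4.10 on the combined arrays, against 3.88, 3.75 and 3.88 with 13-HDHEA and 3.96, 3.94 and 3.95 with 16-HDHEA. Its groups did not overlap, and the difference was 0.38 (95% interval 0.18 to 0.57, unadjusted p = 0.00115). Gpihbp1, which anchors lipoprotein lipase to capillary walls, had 3.53, 3.83 and 3.86 on the combined arrays, against 3.31, 3.31 and 3.44 with 13-HDHEA and 3.38, 3.08 and 3.46 with 16-HDHEA. Here too the combined arrays were above the rest, by 0.41 on average (95% interval 0.19 to 0.63). The single-treatment values of Gpihbp1 were all below the array medians (3.62 to 3.69). It therefore passed the rule on level only through the combined group, and nothing is read from its lack of overlap.

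Adcy9, an adenylyl cyclase that makes cyclic AMP, had 5.21, 4.91 and 4.89 on the combined arrays, against 4.84, 4.47 and 4.71 with 13-HDHEA and 4.42, 4.62 and 4.64 with 16-HDHEA. The LPS vehicle arrays had 4.91, 4.91 and 4.82, so the combined arrays overlapped vehicle while 5 of the 6 single-treatment arrays lay below it. With LPS itself Adcy9 fell by 0.55 (limma adjusted p = 0.00476). Sostdc1, a secreted antagonist of BMP and Wnt signals, and Pdzd4 were 0.27 and 0.30 higher in the combined group, again without overlap, as was Serpinb6c, a serine protease inhibitor of clade B, by 0.45. The mean of Sostdc1 over all 15 arrays was 3.59, below the array medians (3.62 to 3.69). As the rule on level applied to the higher group alone, nothing is read from the lack of overlap in these genes. Ddn, the dendrin gene of kidney podocytes and neurons, and Olfr492, an olfactory receptor, had differences of 0.45 and 0.59 with overlapping groups. The value of Rpl6, a ribosomal protein gene with many near-identical processed pseudogenes, is uncertain for that reason (difference 0.36).

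The 10 with a lower value were Hcst, Wdr86, A3galt2, St8sia5, Eva1b, Slc12a3, Apoc3, Igfbp2, Slc38a8 and Pigz. Hcst, which encodes the signalling adaptor DAP10 of activating immune receptors, had 4.54, 4.67 and 4.82 on the combined arrays, against 4.88, 5.02 and 5.12 with 13-HDHEA and 5.48, 5.10 and 5.17 with 16-HDHEA. The combined arrays were below the other 6, and below the vehicle arrays, which were all at 5.23. The difference from the mean of the isomers was -0.45 (95% interval -0.66 to -0.25, unadjusted p = 0.000346, limma adjusted p = 1, and 0.777 with experiment as a block). Against the vehicle arrays, which both values share, Hcst differed by -0.55 in the combined group and by -0.10 for the mean of the single treatments, with limma adjusted p-values that rounded to 1.

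Wdr86, a WD repeat gene, had 3.63, 3.67 and 3.84 on the combined arrays, against 4.17, 4.27 and 4.41 with 13-HDHEA and 3.97, 3.97 and 3.94 with 16-HDHEA. The 3 groups were separate from each other, with the combined arrays lowest and 13-HDHEA highest. A3galt2, which makes the glycolipid isogloboside, differed by -0.33, Pigz, a mannosyltransferase of GPI anchor synthesis, by -0.36, and Apoc3, an apolipoprotein that inhibits lipoprotein lipase, by -0.29. Eva1b differed by -0.26, and these 4 genes also had combined arrays below the other 6. St8sia5, a ganglioside sialyltransferase (-0.42), Slc38a8, an amino acid transporter (-0.42), Igfbp2, which binds insulin-like growth factors (-0.35), and Slc12a3, the sodium chloride cotransporter of the kidney tubule (-0.31), had groups that touched or overlapped.

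**Figure D3:**
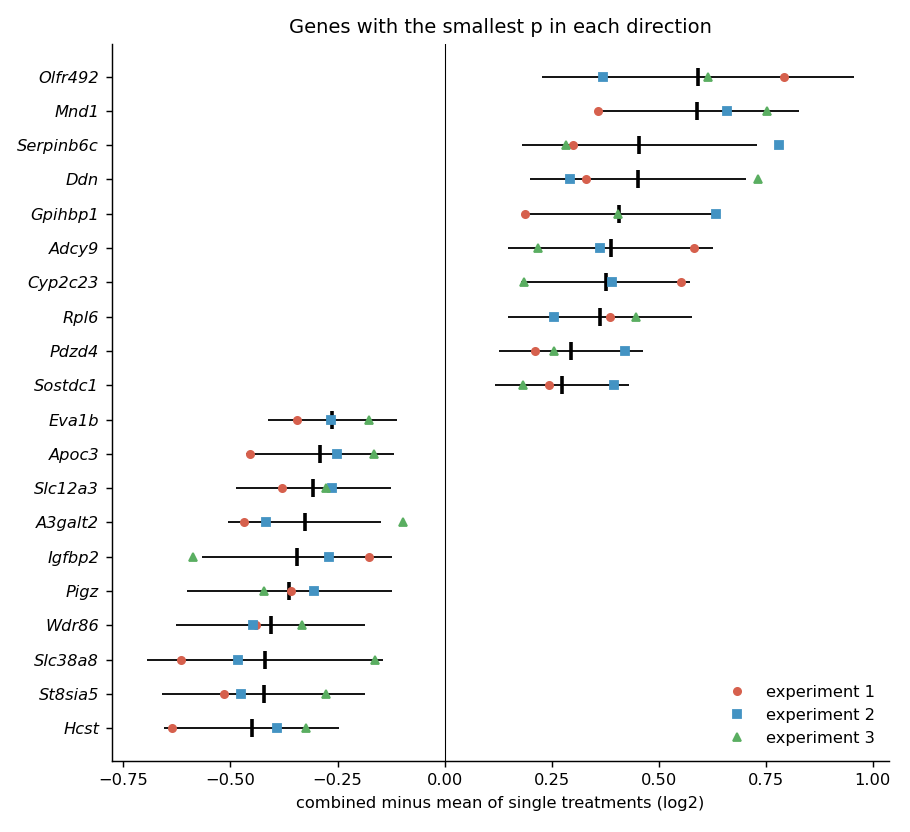
Combined minus mean of single treatments (log2) for the 20 genes with the smallest p, 10 in each direction, with the value in each experiment as a symbol, the mean as a tick and its 95% interval as a line. All symbols of a gene lie on 1 side of 0, which the rule required, and the 3 experiments of a gene often differ by as much as the mean itself.

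The cytokine and mediator genes that mark LPS activation differed between the combined and the single-treatment arrays by less than the spread between arrays. Tnf, a central pro-inflammatory cytokine, had 12.54, 12.43 and 12.42 on the combined arrays, against 12.52, 12.42 and 12.40 with 13-HDHEA and 12.52, 12.48 and 12.42 with 16-HDHEA. The groups overlapped closely, and the difference was 0.0047 (95% interval -0.15 to 0.16), while LPS itself gave 2.55 (limma adjusted p = 9.83e-11). Il6 had 10.75, 10.53 and 10.94 on the combined arrays, against 10.67, 10.47 and 10.74 with 13-HDHEA and 10.85, 10.67 and 10.90 with 16-HDHEA. Its difference of 0.03 (95% interval -0.22 to 0.27) compares with 8.26 for LPS (limma adjusted p = 1.51e-14). Nos2, the inducible nitric oxide synthase, varied more: it had 9.58, 8.72 and 8.87 on the combined arrays, against 9.32, 9.10 and 9.17 with 13-HDHEA and 9.32, 9.11 and 9.14 with 16-HDHEA. In experiment 1 the combined array was above the other 6, and in experiments 2 and 3 below them, with differences of 0.26, -0.39 and -0.29 and a mean of -0.14 (95% interval -0.53 to 0.25).

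Il1b differed by -0.01 (95% interval -0.20 to 0.17), Ptgs2, which makes prostaglandin precursors, by -0.01 (-0.29 to 0.27), and Ccl2, a monocyte chemoattractant, by -0.01 (-0.17 to 0.14). Il1rn, the interleukin 1 receptor antagonist, differed by -0.06 (-0.41 to 0.29), Hmox1, the haem-degrading enzyme, by -0.10 (-0.34 to 0.14), and Cnr2, the cannabinoid receptor of immune cells, by -0.12 (-0.32 to 0.09). Il10, an anti-inflammatory cytokine, differed by 0.14 (-0.09 to 0.37) at a low level, with means of 3.65 in the combined group, 3.38 with 13-HDHEA and 3.63 with 16-HDHEA. Il10 and Cnr2 were not higher with LPS here, at -0.33 and -1.38 for LPS against no LPS, so they do not mark LPS activation in these cells. For these 10 genes the difference of the combined group from 13-HDHEA ran from -0.14 to 0.26 and from 16-HDHEA from -0.14 to 0.02. The 95% intervals of these pairwise differences reached from -0.59 to 0.53, so a difference of more than 0.59 log2 units from either isomer lay outside them.

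**Figure D4:**
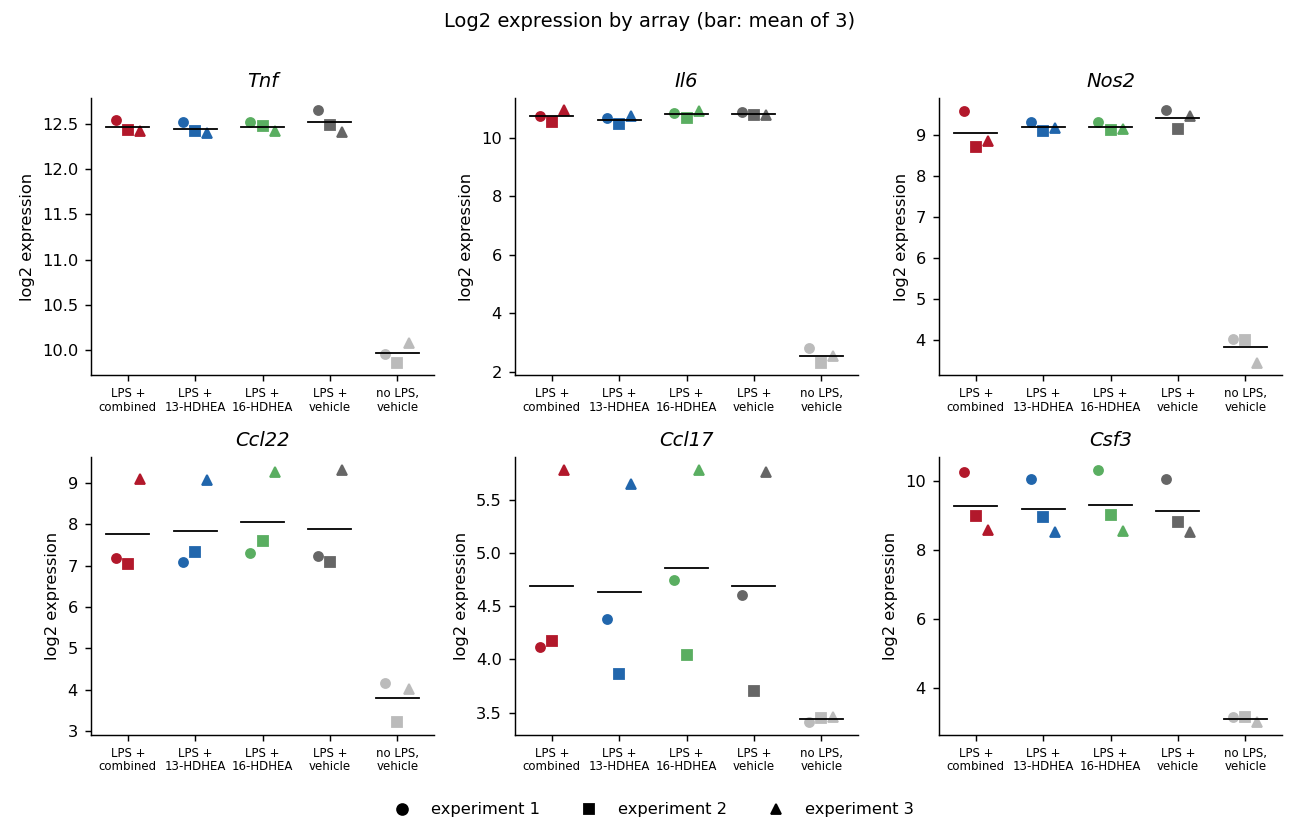
Log2 expression of 6 LPS-responsive genes on each array of the 5 groups, with experiments as symbols and the mean of 3 as a bar; each panel has its own axis. The 4 LPS groups overlap for every gene and lie above the arrays without LPS, by little for some Ccl17 arrays, and Ccl22, Ccl17 and Csf3 are spread by experiment alike in each LPS group.

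The gene lists covered 602 symbols in 29 lists, of which 504 were tested. None of the 504 was called, and 2 (0.397%) had an unadjusted p under 0.05, against 3.21% of all genes. In 2 (0.397%) the combined arrays did not overlap the single-treatment arrays, against 1.43% of all genes. Their differences ran from -0.33 to 0.31 log2 units, and the 95% interval lay within 0.5 for 445 of them (88.29%), against 86.4% of all genes. It lay within 1 log2 unit for 501, and the 3 exceptions, Ccl17, Ccl22 and Csf3, are described here because of their intervals, after their values were seen.

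The chemokine gene Ccl22 had 7.20, 7.04 and 9.10 on the combined arrays, against 7.10, 7.33 and 9.07 with 13-HDHEA and 7.32, 7.60 and 9.27 with 16-HDHEA. It was high in experiment 3 in every LPS group, and so was Ccl17, another ligand of Ccr4, with 4.12, 4.17 and 5.78 on the combined arrays. Csf3, the granulocyte colony-stimulating factor, was instead high in experiment 1, with 10.26, 8.99 and 8.58 on the combined arrays. With experiment as a block their intervals narrowed to -0.82 to 0.48 for Ccl22, -0.65 to 0.54 for Ccl17 and -0.44 to 0.53 for Csf3.

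In the lists of lipid genes no member was called either. Of 23 tested genes of N-acyl ethanolamines and endocannabinoids, 14 were above 0 and 9 below, with a median of 0.02. Pla2g4e, which makes the precursors of N-acyl ethanolamines, had the smallest p among them, with a difference of -0.23 (limma adjusted p = 1, unadjusted 0.0476). Its level was 3.93, 3.93 and 3.81 on the combined arrays, against 4.07, 4.15 and 4.10 with 13-HDHEA and 3.93, 4.02 and 4.44 with 16-HDHEA, so that the groups touched. Faah, the enzyme that splits fatty acid ethanolamides, differed by -0.15 (95% interval -0.39 to 0.09), and Abhd6, a monoacylglycerol lipase, by 0.16 (-0.10 to 0.42). Of 21 genes of eicosanoids and oxylipins, 10 were above 0 and 11 below, and the named ones were Alox12 (-0.16), Ptger2 (0.13) and Ptges3 (0.10).

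Among 7 tested LXR targets, Apoe, the apolipoprotein of cholesterol export, had 4.40, 4.22 and 4.35 on the combined arrays, against 4.24, 3.87 and 3.94 with 13-HDHEA and 3.89, 3.95 and 4.22 with 16-HDHEA. The groups overlapped, the vehicle arrays had 4.25, 4.22 and 4.34, and the difference of the combined arrays from the mean of the isomers was 0.31 (95% interval 0.09 to 0.52, unadjusted p = 0.00813, limma adjusted p = 1). Apoe was 1 of the 2 list genes at an unadjusted p under 0.05. In the same list Nr1h3, which encodes LXR alpha, differed by -0.17 (-0.48 to 0.13) and Mylip, which marks the LDL receptor for degradation, by 0.11 (-0.27 to 0.48).

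Of 18 genes of fatty acid and triglyceride synthesis, Dgat1, which completes triglyceride synthesis, had 7.30, 7.30 and 7.31 on the combined arrays, against 7.26, 7.12 and 7.18 with 13-HDHEA and 7.22, 7.28 and 7.22 with 16-HDHEA. The combined arrays were above the rest, by only 0.09 on average. Dgat2, which catalyses the same step, differed by -0.19 (-0.54 to 0.15), and Acaca, which commits acetyl-CoA to fatty acid synthesis, by 0.09. Of 18 genes of cholesterol synthesis and uptake, 7 were above 0 and 11 below, with Mvk, mevalonate kinase, at -0.20 and Stard4, a sterol carrier, at 0.16. The lysosomal glucosidase gene Gaa was the other list gene without overlap, with 8.80, 8.78 and 8.79 on the combined arrays, against 8.89, 8.93 and 8.94 with 13-HDHEA and 8.83, 8.85 and 8.83 with 16-HDHEA. Its difference was -0.08 (95% interval -0.24 to 0.07).

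Several lists leaned to 1 side by small amounts, among them those of interferon-stimulated and of cell cycle genes. Of 29 interferon-stimulated genes, 23 were below 0 and 6 above, with a median of -0.05, against 7881 above and 7587 below and a median of 0.0020 over all genes tested. Usp18, which dampens interferon receptor signals, had 10.64, 10.98 and 10.94 on the combined arrays, against 10.82, 11.14 and 11.05 with 13-HDHEA and 10.84, 11.23 and 11.10 with 16-HDHEA. Of the 3 HDHEA arrays of each experiment, the combined one was lowest, with a mean difference of -0.18 (95% interval -0.51 to 0.16). Zbp1, a sensor of nucleic acids, differed by -0.15 (-0.43 to 0.13) and Bst2, the tethering factor of budding viruses, by -0.12 (-0.32 to 0.08). The list's median was 0, -0.10 and -0.06 in experiments 1 to 3. It was 0.03 without combined replicate 1, which leaves the experiments unbalanced between the groups. With a whole experiment left out it was -0.08, -0.04 and -0.05 without experiment 1, 2 or 3. Against the shared vehicle arrays the medians of this list were -0.17 for the combined group and -0.10 for the mean of the single treatments.

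Of 31 cell cycle and DNA replication genes, 24 were above 0 and 7 below, with a median of 0.07. Bub1b, a spindle checkpoint kinase, had 7.20, 7.61 and 7.31 on the combined arrays, against 7.09, 7.34 and 7.15 with 13-HDHEA and 6.99, 7.34 and 7.22 with 16-HDHEA. Of the 3 HDHEA arrays of each experiment, the combined one was highest, with a mean difference of 0.18 (95% interval -0.05 to 0.42). Plk1, a mitotic kinase, differed by 0.18 (-0.16 to 0.53) and Top2a, which untangles DNA, by 0.15 (-0.17 to 0.47). The list's median was -0.01, 0.12 and 0.07 in experiments 1 to 3. It ran from 0.0044 without combined replicate 3 to 0.19 without combined replicate 1, and from 0.02 to 0.10 when a whole experiment was left out.

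These 2 lists overlap with what LPS itself changed: 28 of the 29 interferon-stimulated genes were called higher with LPS and 30 of the 31 cell cycle genes lower, against 2089 and 2527 of all 15468 genes. Over all genes that LPS raised at least 2-fold in the vehicle arrays (498, 3.22%), 304 were below 0 in the combined treatment relative to the single ones and 194 above, with a median of -0.02. Over those that LPS lowered at least 2-fold (519, 3.36%), 356 were above 0 and 163 below, with a median of 0.04, which was 0.10 without combined replicate 1 and 0.0098 without combined replicate 2. The 2 comparisons share no array, and across the 15468 genes the 2 differences had a Pearson's r of -0.0801 and a Spearman's rho of -0.0802, given as a description since genes are not independent. By experiment the median of the genes that LPS lowered was 0.02, 0.09 and 0.05, and that of the genes that LPS raised 0.0098, -0.04 and -0.02. The directions of the 4 sets were kept when arrays were centred on their medians and when quantile normalization was repeated. Leaving out combined replicate 2 turned the median of the genes that LPS raised to 0.01, and leaving out experiment 2 turned it to 0.0040.

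**Figure D5:**
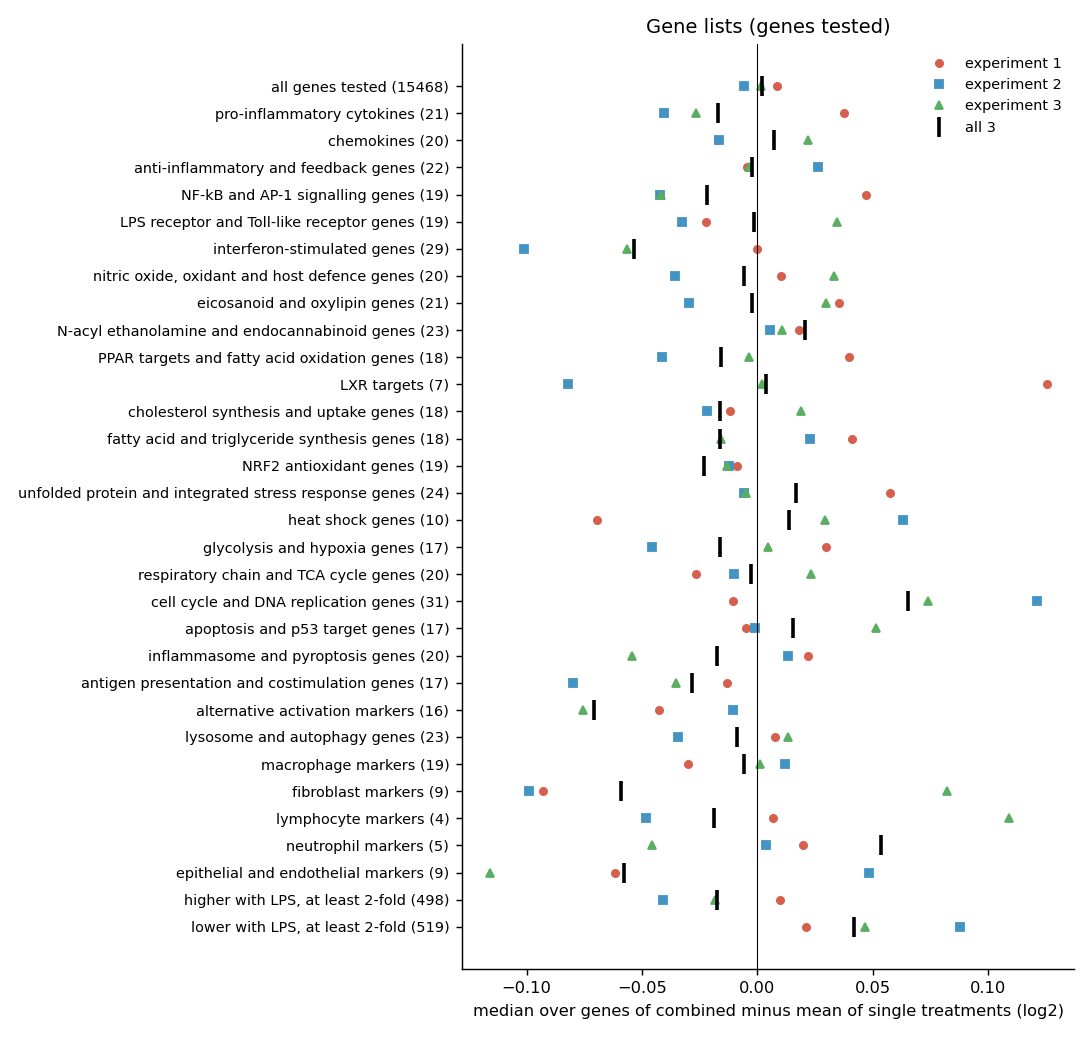
Median over the genes of each list of combined minus the mean of single treatments (log2), with each experiment as a symbol, the median of the 3-experiment differences as a tick, and the number of genes tested in brackets. The ticks lie within 0.1 of 0, and in most lists the experiments fall on both sides of 0.

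In the other lists no member was called either. Pro-inflammatory cytokines had 8 of 21 genes above 0 and a median of -0.02, chemokines 11 of 20 and 0.0070, and NF-kB and AP-1 signalling genes 6 of 19 and -0.02. In the chemokine list the smallest p belonged to Cxcl1 (0.27, 95% interval -0.02 to 0.56), which was dim in these cells, at means of 3.23 in the combined group, 2.97 with 13-HDHEA and 2.96 with 16-HDHEA. Among the LPS receptor and Toll-like receptor genes, Myd88, the main adaptor, had 9.56, 10.15 and 9.96 on the combined arrays, against 9.54, 9.60 and 9.91 with 13-HDHEA and 9.46, 9.72 and 9.97 with 16-HDHEA. Only the combined array of experiment 2 was higher than the rest, and the mean difference was 0.19 (-0.10 to 0.48). Antigen presentation and costimulation genes had 3 of 17 above 0 with a median of -0.03, inflammasome genes 5 of 20 with -0.02, alternative activation markers 6 of 16 with -0.07 and fibroblast markers 1 of 9 with -0.06. The medians of pro-inflammatory cytokines, chemokines, inflammasome genes and alternative activation markers turned to the other side of 0 when an array or experiment was left out. They ran from -0.05 to 0.03 for pro-inflammatory cytokines, from -0.0068 to 0.04 for chemokines and from -0.07 to 0.01 for inflammasome genes. For alternative activation markers the range was -0.10 to 0.05, where 0.05 was the value without combined replicate 1. That of antigen presentation genes stayed below 0.

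Among antigen presentation genes, Cd40, the costimulatory receptor, differed by -0.13 (95% interval -0.46 to 0.19) and Tap1, a peptide transporter, by -0.13 (-0.39 to 0.14). Of the alternative activation markers, Mrc1, the mannose receptor, differed by -0.30 (-0.68 to 0.07), Fn1, fibronectin, by -0.14 (-0.29 to 0.01) and Arg1, arginase 1, by 0.10 (-0.09 to 0.30), all dim, with means from 2.76 to 3.77. Ass1, which recycles citrulline for nitric oxide synthesis, differed by 0.19 (-0.14 to 0.53). Among NRF2 antioxidant genes, 6 of 19 were above 0 with a median of -0.02, and Gpx4, which reduces lipid peroxides, differed by -0.15 (-0.35 to 0.04). Of the markers of other cells, the smallest p-values belonged to the endothelial receptor gene Kdr (-0.33, 95% interval -0.67 to 0.02), the keratin gene Krt18 (-0.27, -0.56 to 0.02) and the cadherin gene Cdh5 (0.23, -0.04 to 0.50), none of which was called.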

How the data were processed

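Total RNA was hybridised to Affymetrix whole-transcript arrays, per the labels' protocols. The deposited unit is log2 expression of a probe set, which the authors made with RMA, per the submitters' processing notes. The sources used here name neither RMA's version nor a chip definition. RMA's quantile step hides shifts shared by most genes, and changes of dim probe sets come out compressed. Array medians ran from 3.62 to 3.69.

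Of 41345 probe sets, 23521 had 1 gene symbol in the platform's table, 1814 had several and 16010 were not listed. By gene identifier, 23328 matched the RefSeq table, and 0 symbols were updated. The probe set with the highest mean over 15 arrays was kept per gene (22180 genes). Genes above the array's 40th percentile on at least 3 arrays were tested (15468), and 6712 were set aside.

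limma 3.58.1 in R 4.3.3 (lmFit, eBayes, no trend, not robust) fitted 5 group means to all 15 arrays, with 10 residual and 3.59 prior degrees of freedom. p-values were two-sided and adjusted by Benjamini-Hochberg over all tested genes, with calls under 0.05. The tests were checked on simulated data. Same-numbered arrays share an experiment identifier in the labels, which pairs them: deviations from group means correlated at 0.0835 to 0.404 over 30 such pairs, above 0.1 in 28, and 15 of 15 arrays correlated best with their own number. A block for experiment leaves 8 residual degrees of freedom.

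Genes were named by a rule: 10 a direction with the smallest p and 1 sign in the 3 experiments, above the 50th percentile in the higher group, without predicted and RNA genes; 3 members per list, by smallest p; and 10 inflammatory genes in every case. The comparison and the lists were chosen with earlier results of these data known. Alternatives were other filters, probe set rules, normalizations, array subsets and the block. The number of arrays limits the precision.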

Additional observations from a re-analysis of the deposited data

Results flagged for a closer look

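The effects of the isomers on Mnd1 differed by a test of the difference itself: 13-HDHEA minus 16-HDHEA was -1.105 log2 units (limma adjusted p = 0.0102), with means of 2.92 and 4.03. The level in the combined group, 4.06, stood beside that of 16-HDHEA. The adjusted p was 0.086 and 0.108 without 13-HDHEA replicate 2 or 3, 0.112 and 0.109 without 16-HDHEA replicate 2 or 3, and 0.0677, 0.977 and 0.982 without experiment 1, 2 or 3. The gene is dim, and its 13-HDHEA values lie below the 40th percentile of their arrays. The part that this low signal has in the difference was not tested.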

How the results depend on the processing

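With experiment as a replicate block, combined minus the mean of the single treatments gave 0 calls, as did every other alternative for it, and among comparisons of LPS groups the block changed no other call (LPS against no LPS gave 5313 calls with it, against 4616). Its genes at an unadjusted p under 0.05, 496 as reported, were 851 with no filter on dim genes, 230 with a 60th percentile filter, 805 with 1 difference per experiment and 947 over all probe sets, a setting that, like the medians of lists under each setting, was chosen after seeing the data. The count of genes whose groups do not overlap was 803 with experiment means removed (replicate block), against 221. Nothing is read from this rise, as the count expected without an effect was not worked out. Fits on the 9 HDHEA arrays alone called 0 genes both for combined minus 13-HDHEA (smallest limma adjusted p 0.125) and for 13-HDHEA minus 16-HDHEA (0.164), with fewer samples for the spread. The fit of all 5 groups called 1 gene in each, and its counts ran from 0 to 1 when an array or experiment was left out. In those leave-out fits of all groups, Mnd1 was 1.03 to 1.35 higher in the combined group than with 13-HDHEA and lost its call in 6 of 12 cases. For 13-HDHEA minus 16-HDHEA it ran from -1.285 to -0.999 and lost its call in 7. Mean of single treatments minus vehicle, with 0 calls, gave 1 call with a 60th percentile filter (fewer genes tested, adjusted p 0.0457) and 1 with repeated quantile normalization (0.0425; the cause was not tested), and 0 to 1 when arrays were left out. For combined minus the mean of the single treatments, 2375 of 2444 values of 118 named genes under 21 alternatives kept their direction and 69 changed sign. Several alternatives change the spread or the genes tested but not the difference itself. They are the block, the 9 HDHEA arrays alone, the filters, the trend and robust options and 1 difference per experiment. Direction could not change under them, so the share that kept it is not read as a measure of stability. No gene was called for this comparison in the main fit, so there was no call to keep. Tnf turned to -0.0216 with repeated quantile normalization and Pgam1 to -0.019 with the mean of all probe sets of a gene. Leaving out 1 array of a group unbalances the experiments, and with an array or experiment left out the differences that changed sign ran as follows: Ctsk -0.11 to 0.34, Ncr1 -0.19 to 0.0056, S100a8 -0.12 to 0.28, Tnf -0.034 to 0.027, Ccl17 -0.60 to 0.23, Ccl22 -0.83 to 0.20, Csf3 -0.45 to 0.39, Il18 -0.16 to 0.029, Osm -0.18 to 0.034, Ikbkb -0.10 to 0.025, Nfkbib -0.0047 to 0.096, Pdk1 -0.14 to 0.039, Hexa -0.15 to 0.012, Col1a1 -0.29 to 0.014, Il1b -0.082 to 0.096, Il1rn -0.21 to 0.027. The rest were Nos2 -0.40 to 0.029, Ptgs2 -0.075 to 0.028, Ccl2 -0.057 to 0.023, Jund -0.12 to 0.018, Hspe1 -0.082 to 0.30, Hspd1 -0.0195 to 0.072, Idh3a -0.032 to 0.11, Il6 -0.073 to 0.13, Cd8a -0.21 to 0.086, Pmaip1 -0.022 to 0.31, Mpo -0.039 to 0.23, Lta -0.39 to 0.036, Ptges3 -0.011 to 0.17, Cxcr2 -0.25 to 0.011, Cnr2 -0.24 to 0.0088, and Mnd1 for combined minus 16-HDHEA -0.046 to 0.14. With 3 arrays a group, the lack of calls does not by itself exclude a difference of 0.5 log2 units, in bright or dim genes. In many dim genes the interval of the difference from the mean of the single treatments also reached past 0.5 log2 units.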
